A study of Mus musculus with 32 samples.

Results

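The nuclear genes for the subunits of the 5 oxidative phosphorylation complexes, with cytochrome c, were followed in mouse liver after injection of antisense oligonucleotides against a microRNA. Members were chosen by symbol: names that begin with Ndufa, Ndufb, Ndufc, Ndufs, Ndufv, Uqcr or Atp5, names of Cox4 to Cox8 genes, and Sdha, Sdhb, Sdhc, Sdhd, Cyc1 and Cycs, without the Ndufaf assembly factors. The rule found 87 of the 24197 genes of the authors' deposited table. It gave 36 genes of complex I, 4 of complex II, 9 of complex III, 20 of complex IV, 17 of complex V and the cytochrome c gene, with Ndufa4 and its paralogue Ndufa4l2 counted in complex IV. The products of 3 matches, Atp5s, Atp5sl and Cox7a2l, are not core parts of the enzymes they are named after. Cox7a2l is known as a supercomplex assembly factor, Atp5sl as an assembly factor of complex I and Atp5s as a coupling factor. In counts and medians by complex, these 3 are kept with the complex of their name.

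The LNA-802 mice were females given a locked nucleic acid (LNA) complementary to miR-802-5p, and the LNA-1948 mice were males given one against miR-1948-5p. Scrambled controls of each sex received an LNA of scrambled sequence. All 32 mice were outbred Crl:CD1(ICR) animals of 9 weeks at injection, labelled 10 weeks, and had 2 subcutaneous doses of 25 mg/kg, on Day 0 and Day 1. Livers were taken on Day 3 or Day 6, which made 4 anti-miR groups of 5 mice and 4 scrambled groups of 3 mice. There was no uninjected group, each anti-miR LNA was given to 1 sex, and the day went with the series of libraries. LNA and sex therefore cannot be told apart among the anti-miR groups, nor day and library series. The values are group means of FPKM as the authors computed them, fragments per transcript length and library size, in strand-specific poly(A) RNA libraries of whole liver. No value per mouse and no count is held by the table, so a group mean has no SD and the depth is unknown. In whole tissue, fewer cells of a type and less RNA per cell cannot be told apart.

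Oxidative phosphorylation passes electrons from NADH (complex I) and succinate (complex II) through ubiquinone, complex III and cytochrome c to oxygen at complex IV. Complexes I, III and IV pump protons across the inner mitochondrial membrane, and complex V, the ATP synthase, uses the gradient to make ATP. Hepatocytes rely on it for gluconeogenesis, urea synthesis and the oxidation of fatty acids. The subunits come from both genomes: the mitochondrial DNA encodes 13 of them, which were not analysed here, and nuclear genes encode the rest.

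The microRNA of the female groups is shown with its seed, bases 2 to 8, in capitals, because the seed is what a target's 3′ UTR pairs with. It lies at chr16:93369737-93369758 on the plus strand (RefSeq, GRCm38). LNA-802 pairs with bases 2 to 16 of it, and the capitals mark the complement of the seed. The scrambled control is shown for comparison.
miR-802-5p: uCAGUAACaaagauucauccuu
LNA-802: gaatctttGTTACTG
scrambled LNA: acgtctatacgccca

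The complement of the seed, GTTACTG, was found in the 3′ UTR of 3 of 79 members with at least 1 FPKM in any group (3.8%), against 942 of 9232 genes at that level with a UTR entry (10.2%). The members' 3′ UTRs were short, with a median of 178 bases against 1020 bases for all genes. A match is a description of letters and does not show that the microRNA binds. The matches lie at base 343 of the 3′ UTR of Atp5s, at base 129 in Ndufb6, an accessory subunit of complex I, and at base 383 in Ndufv2, a core subunit that carries an iron-sulfur cluster. They are printed, in capitals, with the bases around them.
Atp5s: cattgaagcatGTTACTGtaactctacag
Ndufb6: tcactgtccgtGTTACTGtccaaaggttc
Ndufv2: agcatatagttGTTACTGaagtttctgac

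Most subunit genes were highly expressed in every group. At least 10 FPKM was reached in all 8 groups by 76 of 87 members, and 79 reached 1 FPKM in at least 1 group. The median level of these 79 was 47.1 FPKM, against 3.99 FPKM for all 9758 genes at that level, which places it at percentile 93.5. Together the members made up 2.22% of the summed FPKM in LNA-1948 Day 6 males, 2.1% in scrambled Day 6 males, 2.15% in LNA-1948 Day 3 males and 2.22% in scrambled Day 3 males. In females the share was 2.13% in LNA-802 Day 6 mice, 2.08% in scrambled Day 6 mice, 2.12% in LNA-802 Day 3 mice and 2.01% in scrambled Day 3 mice. The tissue markers showed liver: the 6 hepatocyte markers summed to between 19385 and 27964 FPKM per group, while the 6 striated muscle markers summed to at most 0.411 FPKM, the 4 brown fat markers to at most 0.0603 FPKM, and the 3 testis markers were listed at 0.

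The levels differed by complex. The genes of complex IV had the highest median among those at 10 FPKM or more in all groups, 82.9 FPKM, followed by complex V with 73.6 FPKM, complex III with 64.1 FPKM, complex II with 60 FPKM and complex I with 27.4 FPKM. These are levels per length, averaged over the 8 group means. In complex I, Ndufb9 and Ndufa6, accessory subunits, led with 80.2 and 53.5 FPKM, and Ndufa11, an accessory subunit of the membrane arm, was lowest with 4.75 FPKM. The catalytic subunits of complex II, the flavoprotein Sdha and the iron-sulfur protein Sdhb, had 74.8 and 66.6 FPKM, while the membrane anchor Sdhc had 47.8 FPKM. Complex III was led by the small subunits Uqcrq (125 FPKM) and Uqcrb (80 FPKM), with the core protein Uqcrc1 lowest at 53.3 FPKM. Cycs, the electron carrier between complexes III and IV, had 15.6 FPKM. Ndufa4, first described with complex I and now placed in complex IV, had 161 FPKM, the highest level of that complex, before Cox4i1 with 128 FPKM. Atp5b, the catalytic beta subunit of the ATP synthase, had 250 FPKM, the highest of all members and rank 93 among all genes of the table. Its partner in the catalytic head, the alpha subunit Atp5a1, had 162 FPKM.

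**Figure D1:**
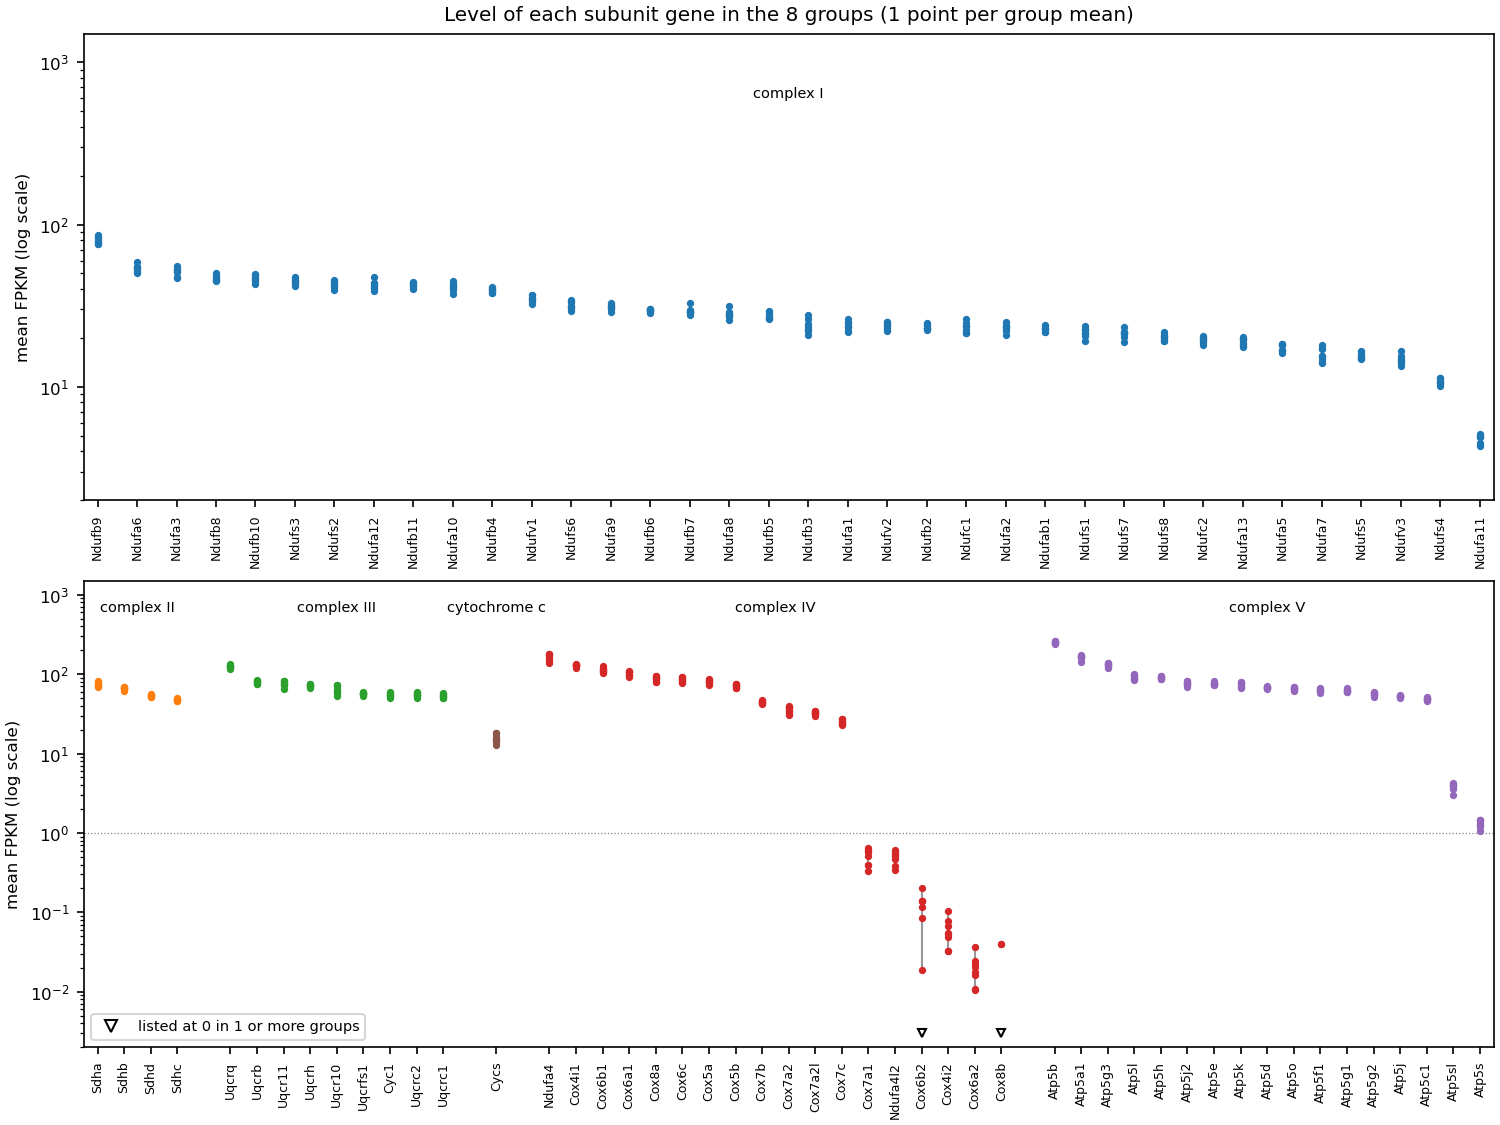
Mean FPKM of each member in each of the 8 groups (log axis, 1 point per group mean, grey line from lowest to highest), by complex, without the 2 members listed at 0 in every group. For the genes above 10 FPKM the points lie close together, and the tissue-restricted forms of complex IV lie below the dotted line at 1 FPKM.

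Where complex IV has a general and a tissue-restricted form of a subunit, the general form carried the signal. Cox4i1 ranged over the groups from 119 to 134 FPKM, while Cox4i2, known from lung and hypoxia, reached at most 0.103 FPKM. The forms known from heart and skeletal muscle also stayed under 1 FPKM: Cox6a2 had at most 0.0365 FPKM beside 102 FPKM for Cox6a1, Cox7a1 at most 0.639 FPKM beside 35.8 FPKM for Cox7a2, and Cox8b at most 0.0402 FPKM beside 88.8 FPKM for Cox8a. The testis forms Cox7b2 and Cox8c were listed at 0 in all 8 groups, and Cox6b2 had at most 0.203 FPKM beside 113 FPKM for Cox6b1. Ndufa4l2, known as a hypoxia-induced paralogue of Ndufa4, had at most 0.611 FPKM. In the ATP synthase, the 3 genes Atp5g1, Atp5g2 and Atp5g3 encode 1 mature protein, the c subunit of the proton-driven ring, and all were expressed, at 62.3, 56.1 and 130.5 FPKM. Their sum stayed between 235 and 257 FPKM over the 8 groups. Atp5sl and Atp5s, at 3.88 and 1.33 FPKM, were far below the ATP synthase genes they are named after.

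The members varied little between groups. The ratio of the highest to the lowest of the 8 group means had a median of 1.15 for the 76 members at 10 FPKM or more in all groups, with a range of 1.06 to 1.42, and was under 1.5 in 76 of 76. Over all 2055 genes at that level the median was 1.22, and 82.9% were under 1.5. Ndufb6, Atp5j (coupling factor 6 of the ATP synthase stalk) and Sdhc varied least, with ratios of 1.06, 1.07 and 1.07. Cycs with 1.42, Uqcr10 with 1.41, Ndufb3 with 1.32, Ndufa4 with 1.30 and Ndufa7 with 1.29 varied most. The highest of the 8 means was that of scrambled Day 3 males in 33 of the 76 members and that of LNA-1948 Day 6 males in 19, while the lowest was that of scrambled Day 3 females in 32 and of scrambled Day 6 females in 20. Over all genes at that level, scrambled Day 3 males were highest in 12.3% and LNA-1948 Day 6 males in 22%, and scrambled Day 3 females were lowest in 16% and scrambled Day 6 females in 20.5%.

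**Figure D2:**
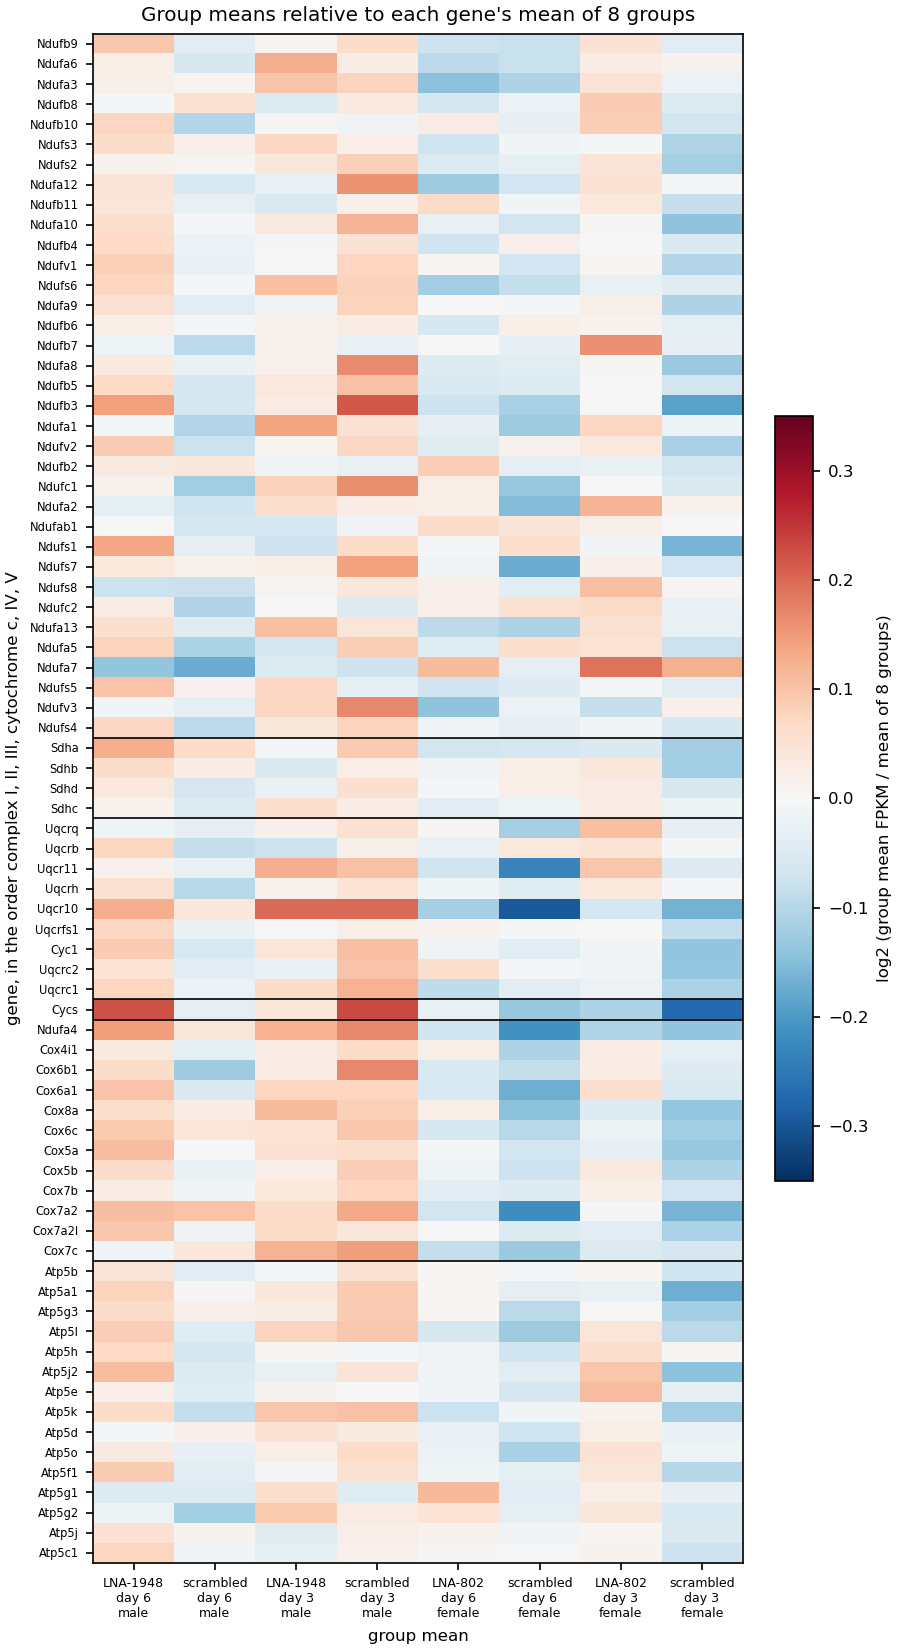
Log2 of each group mean FPKM over the gene's mean of the 8 groups, for the 76 members with at least 10 FPKM in every group (rows, by complex; columns, groups, males on the left). Most cells are pale, and the strongest colours are in Uqcr10, Cycs, Uqcr11, Ndufb3, Cox7a2 and Ndufa4, mostly red in male and blue in female columns.

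The first comparison asked whether blocking miR-802-5p in females altered the subunit genes. On Day 6, 0 of 87 members passed an adjusted p of 0.05 in the authors' deposited table (edgeR), where 0.339% of all genes passed. At an unadjusted p under 0.05, 1 member was higher and 1 lower in that table, 2 in all, where 1.98% of all genes were higher, 2.44% lower and 4.41% either. The lower one was Atp5sl, at 3.04 FPKM in LNA-802 females and 4.30 FPKM in scrambled females. Its log2 ratio in the authors' deposited table was -0.48, with an unadjusted p of 0.0095 and an edgeR adjusted p of 0.577. The higher one was Cox6b2, with 0.203 FPKM in LNA-802 females and listed at 0 in scrambled females, and edgeR adjusted p = 0.143 in the authors' deposited table. At these levels a fold has no meaning.

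No other member had an unadjusted p under 0.05 on Day 6 in females. The next smallest p-values belonged to Uqcr11 and Ndufa11. For Uqcr11, a small subunit of complex III, the deposited log2 ratio of the authors was 0.18, with 72.3 FPKM in LNA-802 females and 64.5 FPKM in scrambled females. Ndufa11 had 4.94 FPKM in LNA-802 females and 4.37 FPKM in scrambled females (unadjusted p = 0.156 in the authors' deposited table). Uqcr10 and Cox7a2 are given because they were called between the sexes. In the authors' deposited table, Uqcr10 (another small subunit of complex III) had a log2 ratio of 0.20, with 59.2 FPKM in LNA-802 females and 52.3 FPKM in scrambled females. The complex IV gene Cox7a2 stood at 34.3 FPKM in LNA-802 females and 30.8 FPKM in scrambled females. The median log2 ratio in the authors' deposited table was 0.046 over the 79 expressed members, 58 of them positive. It was 0.008 over all genes at 1 FPKM or more, of which 52.4% were positive. Genes at 10 FPKM or more had 0.028 and 57.8%. All 12 expressed genes of complex IV had a positive log2 ratio in the authors' deposited table, with a median of 0.081, and so did 23 of 36 in complex I, 1 of 4 in complex II, 7 of 9 in complex III and 14 of 17 in complex V. By the ratio of mean FPKM, 12 of 12 in complex IV and 53 of all 79 were positive. None of these single genes passed the test.

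On Day 3 the LNA-802 females gave 0 of 87 calls in the authors' deposited table (adjusted p under 0.05 by edgeR, against 0.0165% of all genes). At an unadjusted p under 0.05 the count was also 0, where 2.63% of all genes passed. Among members at 1 FPKM or more, the smallest unadjusted p in the authors' deposited table belonged to Atp5j2 (the f subunit of the ATP synthase), 0.137, with a log2 ratio of 0.20. It had 82.5 FPKM in LNA-802 females and 69.9 FPKM in scrambled females. Ndufa11 followed with 5.09 FPKM in LNA-802 females and 4.29 FPKM in scrambled females, and then Ndufb3, an accessory subunit of complex I, with 23.8 FPKM in LNA-802 females and 20.9 FPKM in scrambled females (unadjusted p = 0.288 in the authors' deposited table). Cox6b2, below 1 FPKM, had 0.138 FPKM in LNA-802 females and 0.019 FPKM in scrambled females (unadjusted p = 0.0727 in the authors' deposited table). The median log2 ratio of the authors' deposited table was 0.055, with 70 of 79 members positive. All genes at 1 FPKM or more had 0.012 and 53.4%, and those at 10 FPKM or more 0.019 and 57.6%. By the ratio of mean FPKM, which leaves out the authors' scaling, the Day 3 median was 0.090 with 78 of 79 positive, and the median of all genes 0.047.

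The members with a seed match did not stand out in LNA-802 females. The Day 6 log2 ratio that the authors' deposited table gives was -0.05 for Atp5s, -0.06 for Ndufb6 and -0.04 for Ndufv2, and on Day 3 it was -0.03, 0.01 and 0.11. None passed the test on either day.

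The second comparison asked the same for miR-1948-5p in males. On Day 6, 0 of 87 members were called in the authors' deposited table (adjusted p under 0.05 by edgeR, against 0.124% of all genes), and 0 had an unadjusted p under 0.05, where 3.07% of all genes passed. Cycs came closest. It had 18.2 FPKM in LNA-1948 males and 15.2 FPKM in scrambled males, and the authors' deposited table gave a log2 ratio of 0.20 and an unadjusted p of 0.0932. Ndufb3 had 26.3 FPKM in LNA-1948 males and 22.8 FPKM in scrambled males, and Cox6b1 had 117.6 FPKM in LNA-1948 males and 103.3 FPKM in scrambled males. Atp5s had 1.31 FPKM in LNA-1948 males and 1.06 FPKM in scrambled males (unadjusted p = 0.283 in the authors' deposited table). The median log2 ratio in the authors' deposited table was 0.026, with 54 of 79 positive. All genes at 1 FPKM or more had 0.007 and 52.4%, and those at 10 FPKM or more 0.005 and 52%. By the ratio of mean FPKM the members' median was 0.084, with 73 of 79 positive, and that of all genes 0.063.

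On Day 3 in males, Cycs and Ndufb3 lay on the other side. Cycs had 16.02 FPKM in LNA-1948 males and 18.3 FPKM in scrambled males, a log2 ratio in the authors' deposited table of -0.19 with an unadjusted p of 0.118. Ndufb3 had 24.3 FPKM in LNA-1948 males and 27.6 FPKM in scrambled males, and Ndufa12, another accessory subunit of complex I, 41.6 FPKM in LNA-1948 males and 47.3 FPKM in scrambled males. Ndufa8, also an accessory subunit, had 28.4 FPKM in LNA-1948 males and 31.5 FPKM in scrambled males (unadjusted p = 0.209 in the authors' deposited table). Called members were 0 of 87 in the authors' deposited table (adjusted p under 0.05 by edgeR, against 0.0537% of all genes), and 0 had an unadjusted p under 0.05, where 2.76% of all genes did. The median log2 ratio in the authors' deposited table was -0.045, with 24 of 79 positive. All genes at 1 FPKM or more had -0.008 and 47.3%, and those at 10 FPKM or more -0.007 and 47%. The direction of the members' median thus differed between Day 6 and Day 3. The difference between the days was tested per gene with an approximate z test. Of 68 testable members 0 passed its adjusted p of 0.05, where 0.536% of all 8022 testable genes passed. Cycs had the smallest approximate p, 0.0222 for a Day 6 minus Day 3 difference of 0.39 on the log2 scale, and an approximate adjusted p of 0.663. For LNA-802 in females 0 of 70 members passed that test, against 0.0841% of all 8322 testable genes. No member had an approximate unadjusted p under 0.05 there.

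**Figure D3:**
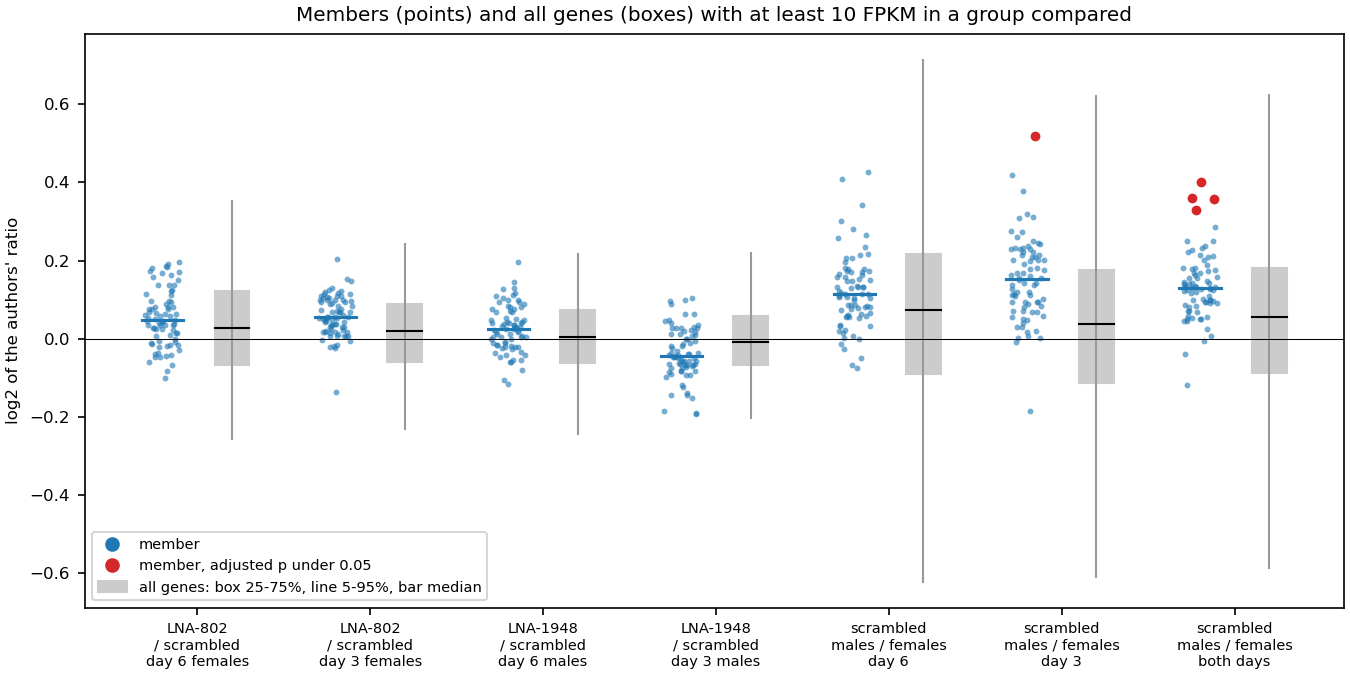
Log2 of the authors' ratio in the 7 comparisons of the deposited table, for members (points, with their median as a blue bar) and all genes (grey box from 25% to 75%, line from 5% to 95%, black median), each at 10 FPKM or more in a group compared. The points lie close to 0 in the 4 anti-miR comparisons, and red points, the called members, appear where scrambled males are set against scrambled females.

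A p that misses the threshold does not show that levels were equal, so the size of change left by the error was computed. The standard error of each log2 ratio was recovered from the p-value of the authors' deposited table, as an approximation. Its median over members at 10 FPKM or more was 0.128 for LNA-802 on Day 6 and 0.141 for LNA-802 on Day 3. For LNA-1948 it was 0.115 on Day 6 and 0.120 on Day 3. No standard error could be recovered at a p near 1, which left 70 to 72 of 76 members per comparison. For members at 10 FPKM or more, the bounds of the approximate 95% intervals reached no further than 0.48 above and -0.44 below 0 on the log2 scale in the 4 comparisons. For Atp5b the interval of the authors' log2 ratio was -0.21 to 0.26 for LNA-802 on Day 6 and -0.18 to 0.23 for LNA-1948 on Day 6.

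Among members at 10 FPKM or more, the largest log2 ratio of the 7 comparisons was between the sexes, 0.52, while the anti-miR comparisons reached at most 0.20 in the authors' deposited table. In the authors' deposited table, the comparison of scrambled males with scrambled females over both days called 4 of 87 members, all higher in males (adjusted p under 0.05 by edgeR), where 7.81% of all genes were called and 3.19% were called higher. Among well expressed genes the calls were 4 of 76 members, or 5.26%, against 21.5% of all genes with at least 10 FPKM in a scrambled group. At an unadjusted p under 0.05 there were 21 members over both days, against 15.8% of all genes, and 6 on Day 3, against 9.92%. These 2 shares are over all 24197 genes, of which 9644 reached 1 FPKM in a scrambled group. The same holds for every share of all genes given beside edgeR p-values without a stated level. Such shares are therefore not matched to the members for level. Called were Uqcr10 of complex III, Cox7a2 and Ndufa4 of complex IV, and Cycs, which carries electrons between these complexes.

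Uqcr10 (chr11:4601970-4604347, mm9) had 65.9 FPKM in scrambled Day 6 males and 73.6 FPKM in scrambled Day 3 males, against 52.3 FPKM in scrambled Day 6 females and 57.2 FPKM in scrambled Day 3 females. Over both days its log2 ratio in the authors' deposited table was 0.40 (approximate SE 0.094, edgeR adjusted p = 0.000635). The LNA-1948 males had 70.0 FPKM on Day 6 and 73.5 FPKM on Day 3, and the LNA-802 females 59.2 FPKM on Day 6 and 61.5 FPKM on Day 3. All 4 male means of Uqcr10 thus lay above all 4 female means.

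Cox7a2 (chr9:79603047-79607660, mm9) had 38.4 FPKM in scrambled Day 6 males and 39.3 FPKM in scrambled Day 3 males, against 30.8 FPKM in scrambled Day 6 females and 32.01 FPKM in scrambled Day 3 females. Its log2 ratio over both days in the authors' deposited table was 0.36 (approximate SE 0.085, edgeR adjusted p = 0.000804). The anti-miR groups kept the order, with 38.6 and 37.5 FPKM in LNA-1948 males on Day 6 and Day 3 and 34.3 and 35.6 FPKM in LNA-802 females.

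Ndufa4 (chr6:11850372-11857446, mm9) had 165.9 FPKM in scrambled Day 6 males and 181.4 FPKM in scrambled Day 3 males, against 139.5 FPKM in scrambled Day 6 females and 146.8 FPKM in scrambled Day 3 females. The authors' deposited table gave a log2 ratio of 0.33 over both days (approximate SE 0.086, edgeR adjusted p = 0.00304). All 4 male means were above all 4 female means, the nearest being 165.9 FPKM in scrambled Day 6 males and 153.7 FPKM in LNA-802 Day 6 females.

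Cycs (chr6:50512561-50516473, mm9) had 15.2 FPKM in scrambled Day 6 males and 18.3 FPKM in scrambled Day 3 males, against 14.2 FPKM in scrambled Day 6 females and 12.9 FPKM in scrambled Day 3 females. Its log2 ratio over both days in the authors' deposited table was 0.36 (approximate SE 0.101, edgeR adjusted p = 0.00715). It was the 1 member called on a single day: on Day 3 the deposited log2 ratio of the authors was 0.52 (edgeR adjusted p = 0.0164), where 3.36% of all genes were called and 1.37% were called higher. On Day 6 it was 0.20 (edgeR adjusted p = 0.924 in the authors' deposited table), and the difference between the days did not pass the approximate z test. The male and female means overlapped, since scrambled Day 6 males had 15.24 FPKM and LNA-802 Day 6 females 15.28 FPKM. Cycs is known for processed copies elsewhere in the mouse genome, and how reads that match several places were counted is not given in the sources used here.

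**Figure D4:**
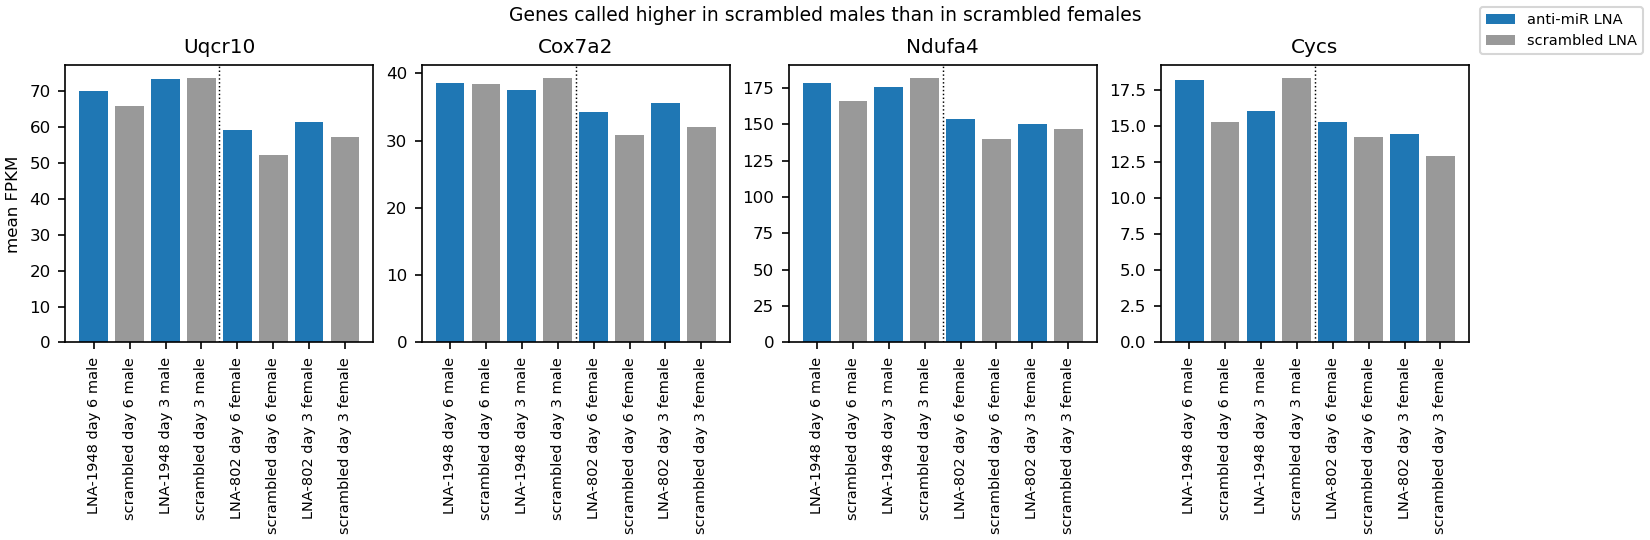
Mean FPKM of Uqcr10, Cox7a2, Ndufa4 and Cycs in the 8 groups (linear axis from 0, males left of the dotted line, blue for anti-miR LNA and grey for scrambled LNA). No error bars are drawn since the table holds group means only. In the first 3 genes every male bar is taller than every female bar, and in Cycs scrambled Day 6 males and LNA-802 Day 6 females are level.

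On Day 6 alone, 0 of 87 members were called in the comparison of the sexes in the authors' deposited table (edgeR), where 4.43% of all genes were called, while 5 had an unadjusted p under 0.05, where 10.9% of all genes did. Uqcr10 and Cox7a2 each had an edgeR adjusted p of 0.0513 in the authors' deposited table. The approximate test of the sex difference on Day 6 minus that on Day 3 was passed by 0 of 72 members. Of all 8589 testable genes 0.303% passed it. Members that came next over both days were Ndufb3 with a log2 ratio of 0.29 (edgeR adjusted p = 0.0517 in the authors' deposited table), Cox6b2 (edgeR adjusted p = 0.053 in the authors' deposited table), which stayed under 1 FPKM in every group, and Cox8a, Cox6c and Sdha with log2 ratios of 0.25, 0.23 and 0.22, none of which passed. The scrambled mice are also the reference of the anti-miR comparisons, so the sex and anti-miR ratios of a gene share samples.

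Small positive differences without a call ran through most members in scrambled males. Over both days the median log2 ratio in the authors' deposited table was 0.130, with 75 of 79 members positive. All genes at 1 FPKM or more had 0.032 and 57.3%, and those at 10 FPKM or more, nearer the members in level, 0.055 and 61.9%. By complex the medians of the authors' deposited log2 ratio were 0.180 in complex IV, 0.155 in complex III, 0.118 in complex I, 0.102 in complex V and 0.099 in complex II. All 12 expressed genes of complex IV were positive over both days, as were all 9 of complex III and all 4 of complex II. On Day 3 the median in the authors' deposited table was 0.151, with 76 of 79 positive. On Day 6 it was 0.114, with 72 of 79 positive, but by the ratio of mean FPKM it was 0.021, with 46 of 79 positive, and the median of all genes was -0.068. Directions on Day 6 of members under about 0.1 on the log2 scale thus depended on the scaling. In complex IV 11 of 12 were still positive by the ratio of mean FPKM on Day 6, with a median of 0.099. Complexes II, III and V had medians of -0.014, -0.017 and -0.006 by that ratio. With the authors' log2 ratio centred on the median of all genes, 67 of 79 members were positive on Day 6. The centred median was 0.089 over the 79 members, and 0.054, 0.051 and 0.062 in complexes II, III and V. The median used for centring, 0.025, was that of all genes at 1 FPKM or more. Genes with at least 10 FPKM in a scrambled Day 6 group had a median of 0.073, with 62.8% positive. Before centring, complexes II, III and V had medians of 0.079, 0.076 and 0.087, near that value. Centring on genes at 10 FPKM was not run.

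Over all 8 group means, each male mean lay above each female mean in 13 of 76 members at 10 FPKM or more, 17.1%, against 18.5% of all genes at that level. The reverse held in 2 of 76, 2.63%, against 20.6% of all genes. The 13 were Uqcr10, Uqcrc1, Cox5a, Cox6c, Cox7a2, Cox7c, Cox8a, Ndufa4, Ndufs3, Ndufs6, Sdha, Atp5a1 and Atp5g3. The 2 were Ndufa7, with male means of 14.1 to 15.4 FPKM and female means of 15.6 to 18.2 FPKM, and Ndufab1, the mitochondrial acyl carrier protein, whose highest male mean was 22.81 FPKM and lowest female mean 22.82 FPKM. In males and females given anti-miR LNA the LNA differed as well as the sex.

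Markers of some other liver cells also differed between scrambled males and scrambled females over both days in the authors' deposited table (adjusted p under 0.05 by edgeR, against 7.81% of all genes). All 8 Kupffer cell markers were called lower in males. Their sum was 46.3 and 43.8 FPKM in scrambled males on Day 6 and Day 3, against 77 and 76.8 FPKM in scrambled females, while over all groups the sums overlapped, from 43.8 to 64.5 FPKM in male groups and from 62.4 to 77 FPKM in female groups. Of 6 endothelial markers 2, Stab2 and Bmp2, were called lower, and the list summed to between 32.4 and 37.2 FPKM in male groups and between 39.1 and 47.3 FPKM in female groups. Of 5 stellate cell markers 2, Lrat and Dcn, were called lower, and Col1a1 had 0.962 to 1.33 FPKM in male groups and 0.566 to 0.855 FPKM in female groups without a call. None of 5 cholangiocyte markers was called. Of the erythroid markers, Alas2 had 32.5 to 40.1 FPKM in male groups and 3.86 to 5.75 FPKM in female groups, while Hbb-b1 had 25.8 to 35 FPKM in male groups and 26.1 to 32.9 FPKM in female groups. The 6 hepatocyte markers went both ways: Alb was called lower in males, with 14069 to 18315 FPKM in male groups and 20842 to 22690 FPKM in female groups, Ttr and Serpina1c were called higher, and Apoa1, Cps1 and Tat were not called. The part of these markers in the members' sex difference was not tested.

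Between the days, within a sex and treatment, the members moved by small amounts that carry no test. The median log2 ratio of Day 6 over Day 3 (mean FPKM plus 1) was 0.031 in LNA-1948 males, with 55 of 79 members positive, against 0.018 and 57.5% for all genes. In scrambled males it was -0.092, with 5 of 79 positive, against -0.037 and 35.4% for all genes. In LNA-802 females it was -0.054, with 18 of 79 positive, against -0.012 and 45.2%, and in scrambled females 0.024, with 47 of 79 positive, against 0.030 and 61.6%. Cox6b1 had the lowest value in scrambled males, -0.29, with 103.3 FPKM on Day 6 and 126.6 FPKM on Day 3.

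Genes that make, feed or regulate the respiratory chain were read in the same way. In the 4 anti-miR comparisons of the authors' deposited table, 0 genes were called (adjusted p under 0.05 by edgeR) among 41 assembly factors, 20 nuclear regulators, 19 genes of the TCA cycle, 52 of the mitochondrial ribosome and 27 carriers, inhibitors and coenzyme Q genes. At an unadjusted p under 0.05 these 159 genes gave 5 for LNA-802 on Day 6 (3.14%, against 4.41% of all genes), 2 for LNA-802 on Day 3 (1.26%, against 2.63%), 5 for LNA-1948 on Day 6 (3.14%, against 3.07%) and 2 for LNA-1948 on Day 3 (1.26%, against 2.76%). The smallest unadjusted p in these lists in LNA-802 Day 3 females belonged to Ppargc1a, the coactivator of mitochondrial biogenesis, with 0.716 FPKM in LNA-802 females and 1.10 FPKM in scrambled females. Its log2 ratio in the authors' deposited table was -0.65 (unadjusted p = 0.001, edgeR adjusted p = 0.448). The nuclear receptor Ppara, a regulator of fatty acid oxidation, had 14.9 FPKM in LNA-802 females and 20.2 FPKM in scrambled females on Day 3 (edgeR adjusted p = 0.8 in the authors' deposited table). On Day 6 in females, Ndufaf6, an assembly factor of complex I, had 2.54 FPKM in LNA-802 mice and 3.76 FPKM in scrambled mice (edgeR adjusted p = 0.266 in the authors' deposited table). Pdhb, the beta subunit of the pyruvate dehydrogenase E1 enzyme, had 35.3 FPKM in LNA-802 mice and 28.7 FPKM in scrambled mice (edgeR adjusted p = 0.551 in the authors' deposited table).

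Between scrambled males and scrambled females, over both days, calls in these lists went both ways in the authors' deposited table. Of the 159 genes 10 were called (6.29%), against 7.81% of all 24197 genes, a share not matched to the lists for level. Of the assembly factors 3 of 41 were higher in males: Cox18 and Cox19, which serve complex IV, with log2 ratios in the authors' deposited table of 0.48 and 0.54, and Foxred1, which serves complex I, with 0.29. Coq7 and Pdss2, enzymes of coenzyme Q synthesis, were higher with authors' deposited log2 ratios of 0.56 and 0.34, while the uncoupling protein homologue Ucp2 was lower with -0.48. The mitochondrial ribosome gave 1 higher gene, Mrpl34, and 1 lower, Mrpl15, out of 52 in that table. Idh2, the NADP-linked isocitrate dehydrogenase, was lower, at a log2 ratio in the authors' deposited table of -0.41. Idh3a, the catalytic subunit of the NAD-linked enzyme, was not called over both days. It was called lower on Day 6 with -0.69, where 5 of the 159 genes were called (3.14%, against 4.43% of all genes). On Day 3 it had 5.68 FPKM in scrambled males and 5.80 FPKM in scrambled females, without a call. The nuclear receptor Esrrg was lower, with a log2 ratio over both days of -1.34 in the authors' deposited table. It had 0.133 FPKM in scrambled Day 6 males and 0.489 FPKM in scrambled Day 6 females. On Day 3 it had 0.170 FPKM in scrambled males and 0.303 FPKM in scrambled females. All these levels are under 1 FPKM, so the size of the fold is uncertain.

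The promoters of the members were searched for motifs of regulators known to act on nuclear respiratory genes, from 250 bases before to 50 bases after the start site, on both strands. An entry was found for 71 of 87 members in the RefSeq table (GRCm38.p6). Members were sought by symbol and synonym, the expressed genes by symbol only. The 71 were not filtered by level and include Cox6b2, which stayed under 1 FPKM. The NRF1 motif, GCGCA and GCGC around any 1 base, was held by 17 of 71 member promoters (23.9%), against 12.5% of 7287 genes with at least 1 FPKM and 5.19% of all 27025 genes. The YY1 core AAGATGGC was held by 11 of 71 (15.5%), against 5.96% of expressed and 3.19% of all genes. In 9 of these 11 genes it lay between 23 and 39 bases past the start site, on the given strand. The ETS core CCGGAA was held by 36.6% of members, 33.3% of expressed genes and 16.7% of all genes. The full CREB site TGACGTCA was held by 5 of 71 (7.04%), against 3.65% of expressed and 2.03% of all genes, and the SP1 box GGGGCGGGG by 16.9%, against 25% of expressed and 12.9% of all genes. These shares carry no test.

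The promoters of 4 genes are shown, with matches in capitals and positions counted from the start site, negative before it: Sdha, whose window holds 3 NRF1 matches, Ndufs6, with an NRF1 match on the other strand at position -16 and a YY1 match at position 34, Cycs, with the CREB site at position -169, and Uqcr10, the member with the smallest adjusted p between the sexes, which held none of these letters. All are on the minus strand of GRCm38.p6 and written 5′ to 3′ for the gene. Sdha lies at chr13:74350191-74350490, Ndufs6 at chr13:73328433-73328732, Cycs at chr6:50566520-50566819 and Uqcr10 at chr11:4704295-4704594.
Sdha: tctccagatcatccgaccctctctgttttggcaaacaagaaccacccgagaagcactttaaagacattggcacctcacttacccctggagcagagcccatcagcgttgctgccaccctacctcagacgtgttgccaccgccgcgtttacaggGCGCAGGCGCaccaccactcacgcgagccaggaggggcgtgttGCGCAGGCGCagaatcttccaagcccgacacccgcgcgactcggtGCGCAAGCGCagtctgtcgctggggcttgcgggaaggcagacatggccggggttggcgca
Ndufs6: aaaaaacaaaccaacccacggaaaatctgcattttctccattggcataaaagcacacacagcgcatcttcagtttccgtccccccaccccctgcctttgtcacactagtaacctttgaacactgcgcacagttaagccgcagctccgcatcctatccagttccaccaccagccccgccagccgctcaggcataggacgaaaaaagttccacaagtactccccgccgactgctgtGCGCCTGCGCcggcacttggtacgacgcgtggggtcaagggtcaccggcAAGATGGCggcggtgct
Cycs: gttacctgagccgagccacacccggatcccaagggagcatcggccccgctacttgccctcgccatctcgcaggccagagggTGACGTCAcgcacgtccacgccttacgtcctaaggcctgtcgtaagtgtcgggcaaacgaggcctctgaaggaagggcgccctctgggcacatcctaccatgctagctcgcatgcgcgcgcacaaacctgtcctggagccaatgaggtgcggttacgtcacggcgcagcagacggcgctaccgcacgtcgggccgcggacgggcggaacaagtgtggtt
Uqcr10: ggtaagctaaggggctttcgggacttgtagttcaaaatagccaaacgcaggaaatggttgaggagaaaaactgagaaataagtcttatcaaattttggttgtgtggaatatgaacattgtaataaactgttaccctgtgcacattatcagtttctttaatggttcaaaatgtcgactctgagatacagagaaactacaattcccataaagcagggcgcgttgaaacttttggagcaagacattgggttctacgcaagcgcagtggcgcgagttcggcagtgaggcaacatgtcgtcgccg

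Of the 4 genes called between the sexes, all had a promoter entry. Cox7a2 held 1 ETS core, at position -172, and Ndufa4 held none of the 5 motifs. The span of 13 members overlaps another gene of the table, none of them among these 4, and reads of overlapping genes are uncertain because the strand setting of the counting is not given in the sources used here.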

How the data were processed

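Liver poly(A) RNA of 32 mice was sequenced, in 8 groups taken from the labels. Per the submitters' processing notes, TopHat2, featureCounts and edgeR were used with mm9, and versions are not given there. The authors deposited 1 table whose FPKM columns are group means, per the file headers. It also gives the authors' ratio for 7 comparisons, per the file headers. The unadjusted and adjusted p-value per gene were computed by the authors and deposited in the same table; the adjusted ones equalled a Benjamini-Hochberg adjustment over all 24197 genes. With no counts or values per mouse, the authors' edgeR adjusted p under 0.05 was taken as a call.

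Computed here, with Python 3.11.15, pandas 2.3.3, NumPy 2.4.6 and SciPy 1.17.1, were log2 ratios, counts, medians over members with at least 1 FPKM in a group compared, and 3′ UTR (GENCODE) and promoter matches. Standard errors were taken from the authors' p-values by a normal approximation, with 95% intervals and a two-sided z test between days adjusted over genes at 1 FPKM. Both were chosen after the table was seen. They were run on simulated data with normal errors. That run checks the arithmetic, not whether the approximation holds for the authors' p-values. Members and lists were chosen with earlier results of these data known. Named were called members, the 4 smallest p per anti-miR comparison, the extremes of level by complex and of variation, isoform sets, and list genes called or with the smallest p. Members named outside this rule, such as the other genes of the non-overlap count and those next in order between the sexes, were chosen after their values were seen. The sum of the erythroid marker list is not reported here.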

Additional observations from a re-analysis of the deposited data

How the results depend on the processing

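Counts of called members were recomputed at other thresholds, at a 1 FPKM minimum and without Atp5s, Atp5sl and Cox7a2l. In the anti-miR comparisons they were 0 under every setting but 1: at an unadjusted p under 0.05, LNA-802 on Day 6 gave 2 members. Between scrambled males and females, an unadjusted p under 0.05 gave 6 members on Day 3, 5 on Day 6 and 21 over both days. An adjusted p under 0.10 gave 2 on Day 6 and 9 over both days, and an adjusted p under 0.01 gave 0 on Day 3. The share of all genes at these adjusted thresholds was not computed, so these counts cannot be read against it. Between the sexes, the alternatives chosen after seeing the data were all those for both days together, all those of the medians, and, for the counts on single days, the adjusted p under 0.01, the 1 FPKM minimum and the omission of the 3 genes. Median log2 ratios kept their sign under 40 of 40 alternatives, although between the sexes on Day 6 the ratio of mean FPKM lowered the median to 0.021, against 0.114 with the authors' ratio. The Day 6 over Day 3 median of scrambled females was -0.006 after centring on all genes, the opposite sign of 0.024; the other 11 day alternatives kept theirs. On the given strand alone, the ETS core was in 16.9% and the SP1 box in 7.04% of member promoters. Shares of expressed and all genes on that strand alone are not given here. These values therefore cannot be set against the shares on both strands.

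No paired analysis was possible because the table holds no values per mouse. For the same reason leaving out single mice was not run, and depth and the spread between mice are unknown. Group means of unknown spread limit levels to description, and the approximate errors rest on a normal reading of the authors' p-values.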
